A study of Homo sapiens with 2 samples.

Results

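The 10 genes described here encode enzymes that remove or interconvert androgens: UGT2B7, UGT2B10, UGT2B11, UGT2B15, UGT2B17, UGT2B28, HSD17B6, DHRS9, AKR1C3 and SRD5A1. They were taken by gene symbol from 47232 genes that the tables name, short RNAs left out, and all 10 were found. They were measured in C4-2B, a bone-metastatic prostate cancer line derived from LNCaP that grows without androgen and serves as a model of castration-resistant disease. 1 library came from cells given DMSO as vehicle and 1 from cells given 2.5 µM MA4-022-1, which the labels call a BET-kinase inhibitor. For how long is not stated in any source used here. Both groups share the cell line, its medium and the library protocol, so each difference below is between 2 libraries of 1 line. With 1 library a group there is no replicate check, no error between cultures and no p-value.

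Prostate cells meet androgens as testosterone, as dihydrotestosterone, and as weaker precursors and metabolites, and the enzymes of the cell set the balance between them. Reductases such as SRD5A1 and AKR1C3 act towards the potent hormones, and oxidising dehydrogenases such as HSD17B6 and DHRS9 can return reduced metabolites to the active pool. UGT2B enzymes attach glucuronic acid to the steroid, which ends its action as a hormone. In prostate cancer cells UGT2B15 and UGT2B17 are known as genes that androgen represses. Several UGT2B genes lie side by side on chromosome 4 and differ little in sequence.

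Only HSD17B6 and SRD5A1 reached 1 RPKM in a library. RPKM counts reads per kilobase of transcript, scaled to the size of the library. HSD17B6 was lower with MA4-022-1, at 2.45 RPKM against 12.4 RPKM under DMSO, whereas SRD5A1 stood at 9.24 and 9.99 RPKM. The other 8 enzymes lay under 1 RPKM in both libraries, with highest values of 0.216 RPKM under DMSO and 0.663 RPKM with MA4-022-1. Of 16345 protein-coding symbols in the tables, 39.8% were likewise under 1 RPKM in both.

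**Figure D1:**
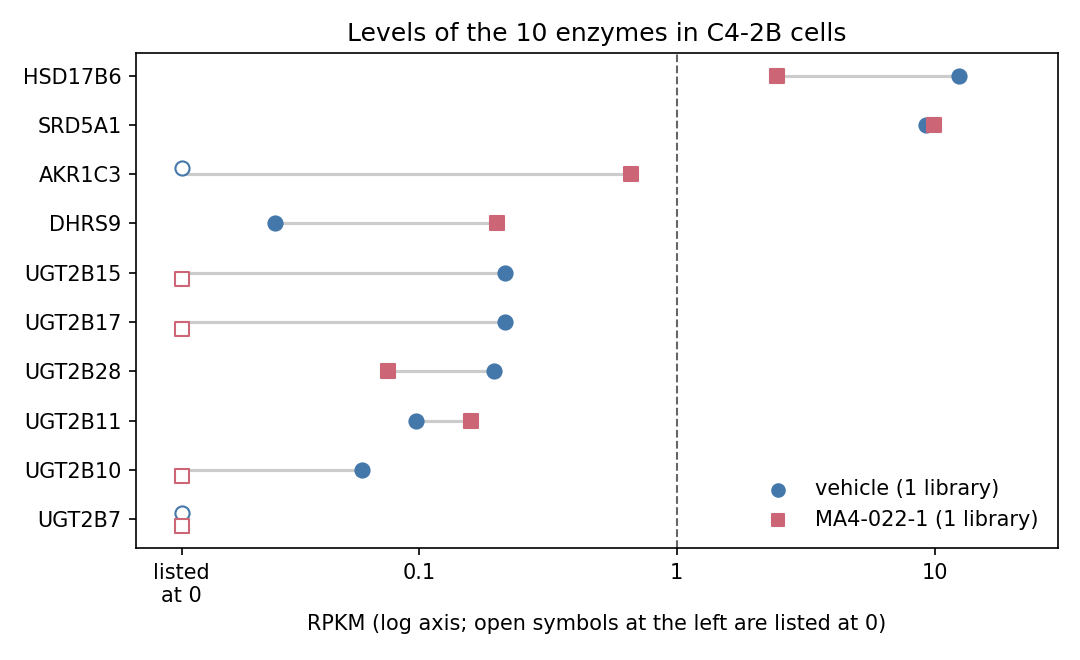
RPKM of the 10 enzymes on a log axis, with 1 point per library (blue circles, vehicle; red squares, MA4-022-1); open symbols at the left are listed at 0 and the dashed line is at 1 RPKM. HSD17B6 and SRD5A1 are right of the line, and HSD17B6 alone of these moves, from 12.4 to 2.45 RPKM.

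The low levels need the read behind them to be read at all. Low values of single-exon pseudogenes moved in whole steps, so the totals behind the RPKM were estimated from them, as 27142891 reads under DMSO and 19913458 with the compound. Among the lowest such values, those worth 5 reads or fewer, 99.0% of 203 under DMSO and 98.7% of 149 with the compound fell within 2% of a whole read. The totals were chosen to bring these same values near whole reads, so the shares describe the fit and do not test it. On a transcript of 2000 nt, 1 read was worth 0.0205 RPKM under DMSO and 0.0279 RPKM with MA4-022-1. Read numbers below assume transcript lengths of GENCODE release 29, and their 95% intervals are exact binomial (Clopper-Pearson) and cover counting error only. A 0 in these tables may not mean absent RNA: of 38 mitochondrial rows, the 33 with a locus named chrMT were all at 0 in both libraries. Whether this bears on rows of other chromosomes was not tested. Values of 0 are therefore written as listed at 0.

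The sequence of the UGT2B copies bears on how far they can be told apart with single reads of 50 bases. Stretches from the coding sequences (GENCODE release 29 transcripts) are shown for both pairs of members that resemble each other most. UGT2B15 and UGT2B17 have 1590 coding bases each, differ at 55 of them and are 96.5% identical. Their longest identical run covers coding positions 866 to 1064, 199 bases, and a read from its first 50 bases would match both genes.
UGT2B15 and UGT2B17, positions 866 to 915: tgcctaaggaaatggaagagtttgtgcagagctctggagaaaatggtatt
The stretch of 50 bases in which they differ most has 9 differences, in capitals.
UGT2B15, positions 252 to 301: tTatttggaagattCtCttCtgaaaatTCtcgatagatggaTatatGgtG
UGT2B17, positions 252 to 301: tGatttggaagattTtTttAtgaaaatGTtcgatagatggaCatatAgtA
UGT2B11 and UGT2B28 are 97.0% identical over 1587 coding bases, and even their most different stretch has 4 differences, again in capitals.
UGT2B11, positions 43 to 92: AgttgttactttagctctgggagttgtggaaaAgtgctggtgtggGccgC
UGT2B28, positions 43 to 92: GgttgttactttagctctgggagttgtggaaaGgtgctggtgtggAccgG
Of all stretches of 50 bases in the longest coding transcript, 27.5% of those of UGT2B15 are also in UGT2B17, and 20.7% of those of UGT2B28 are also in UGT2B11. Any other gene of the annotation, pseudogenes included, held 40.9% of the stretches of UGT2B11, 35.7% of UGT2B28, 31.7% of UGT2B10, 27.8% of UGT2B15 and as many of UGT2B17, and 6.75% of UGT2B7. The share was 12.1% for AKR1C3, 1.12% for SRD5A1, 0.213% for DHRS9 and 0% for HSD17B6.

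**Figure D2:**
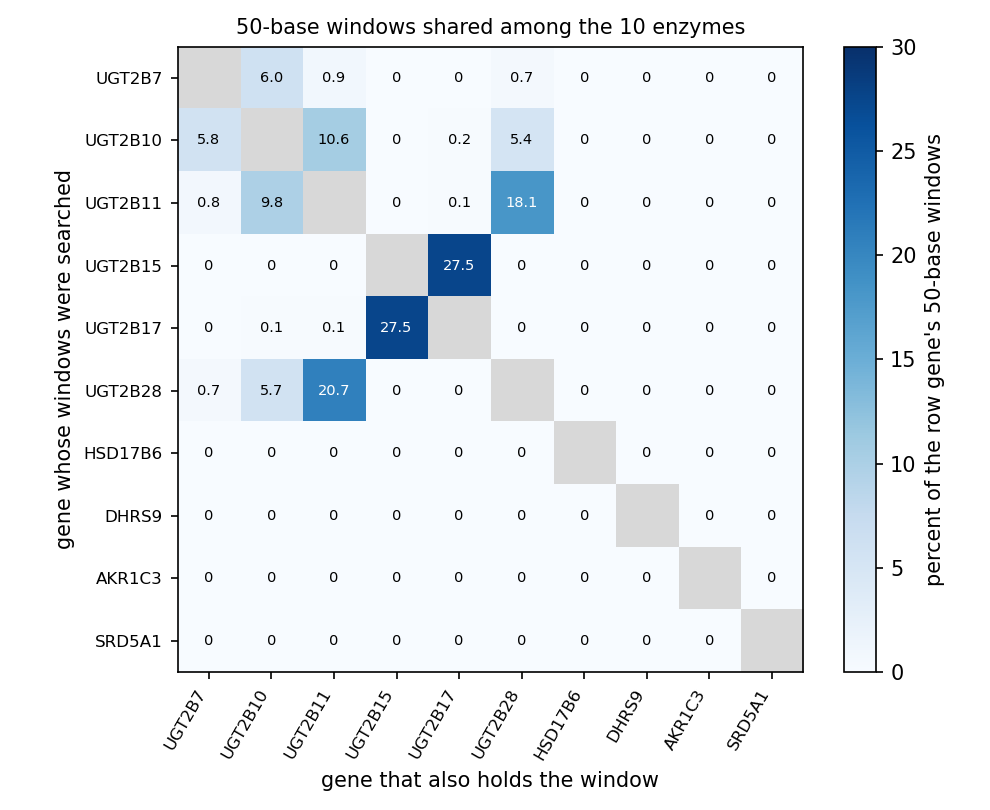
Percent of the 50-base stretches of the row gene's longest coding transcript that also occur, base for base, in a transcript of the column gene. Sharing is confined to the UGT2B members among these 10, is highest for UGT2B15 with UGT2B17 at 27.5%, and is 0 for HSD17B6.

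Among the glucuronidating enzymes, UGT2B15 and UGT2B17, which inactivate dihydrotestosterone and its reduced metabolites, were each at 0.216 RPKM under DMSO, and with the compound both were listed at 0. The 2 vehicle values were equal to the last deposited digit, 0.216049, and no other row of that library held this number. Both genes have 1 annotated transcript of 2077 nt, on which the value is 11.0 reads each. For scale, 3 reads on that length would be 0.0589 RPKM under DMSO and 0.0803 RPKM with MA4-022-1. UGT2B15 is at chromosome 4, 69512347 to 69536346, and UGT2B17 at 69402901 to 69434245, on hg19 as deposited. No fold is given against a value listed at 0.

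UGT2B28, which also acts on androgens, stood at 0.195 RPKM under DMSO and 0.0759 RPKM with MA4-022-1. These values fall on 7 and 2 reads of its shorter coding transcript, 1525 nt. The log2 ratio was -1.36 with a counting interval from -4.66 to 1.03, so the difference was not detectable at this depth. UGT2B11 went the other way, from 0.0976 to 0.160 RPKM, which is 5 and 6 reads of its 2088 nt transcript, a log2 ratio of 0.71 with an interval from -1.27 to 2.76. That interval also spans no change. A row joining RP11-704M14.1 and RP13-644M16.4 has the same deposited locus as UGT2B11 and stood at 0.0301 RPKM under DMSO and 0.146 RPKM with MA4-022-1. Another there, RP11-704M14.2, was listed at 0 in both. The part of these rows in the UGT2B11 values was not tested.

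UGT2B10, known mainly for joining glucuronic acid to amines, was at 0.0603 RPKM under DMSO, or 2 reads of its shorter coding transcript, 1424 nt, and listed at 0 with MA4-022-1. UGT2B7, an enzyme of broad range that is best known from liver, was listed at 0 in both libraries. On hg19 these 4 genes are at chromosome 4, UGT2B10 from 69681710 to 69696914, UGT2B7 from 69917080 to 69978705, UGT2B11 from 70047377 to 70082484 and UGT2B28 from 70146216 to 70160768. Between the outermost of these genes (hg19 chromosome 4, 69402901 to 70160768) the tables held 33 rows. Of these, 26 were at 0 in both libraries, 7 were above 0 under DMSO and 3 with MA4-022-1, and the highest value was the 0.216 RPKM of UGT2B15 and UGT2B17. No row in that stretch reached 1 RPKM.

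A sum over the family depends less than its members do on how reads were divided among the copies. The 6 UGT2B members summed to 0.785 RPKM under DMSO and 0.236 RPKM with MA4-022-1. The difference, as log2 of RPKM + 1, was -0.53, and with a pseudocount of 0.1 RPKM it was -1.40. The 5 members above 0 in a library came to 36 reads against 8, a log2 ratio, per read of each library's total, of -1.72 with a counting interval from -3.04 to -0.59. Whether a read that matched several copies was entered more than once is not stated, and the interval treats each as separate. Of the 36 reads, UGT2B15 and UGT2B17, whose vehicle values were equal, gave 11 each. Whether the interval would still lie below 0 with these counted once was not tested. With UGT2B4, UGT2A1 and UGT2A3 added, 9 symbols in all, the sums were 0.885 and 0.640 RPKM and the log2 difference was -0.20. The difference was narrower because of UGT2A1, which had 0.404 RPKM with the compound and was listed at 0 under DMSO.

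Of the 2 conversion enzymes at 1 RPKM or more, HSD17B6 was past 2-fold. It oxidises androstanediol, a reduced metabolite, back to dihydrotestosterone, and also acts on retinol. Its level fell from 12.4 to 2.45 RPKM, a 3.88-fold lower value on the scale of RPKM + 1 (log2 ratio -1.96) and a 5.06-fold lower one without a pseudocount (log2 ratio -2.34). A pseudocount of 5 RPKM gave a log2 ratio of -1.22. The number of reads behind it depends on the transcript. On the 591 nt coding transcript, the shortest, it was 131 reads against 19, with an interval of the log2 ratio from -3.12 to -1.64. On the 1751 nt transcript, the longest, it was 521 reads against 76, with an interval from -2.70 to -1.98. Both intervals lie below -1.

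Among 9837 protein-coding genes at 1 RPKM or more in a library, HSD17B6 had the 165th lowest ratio, 1.68% of the way from the bottom. In the vehicle library 44.4% of these genes had a lower RPKM than HSD17B6, and with MA4-022-1 14.8% did. Of these protein-coding genes 9.49% had fallen 2-fold or more and 4.12% had risen as much, and of all 15432 genes kept, noncoding ones included, 9.57% and 7.73%. The balance of these directions depends on scale: higher genes were 30.2% of the protein-coding genes past 2-fold as deposited, 45.4% with 16 housekeeping controls set to 0 and 21.1% with equal sums over the genes kept. Beside that, 1 of the 2 members that passed was at least 2-fold lower, HSD17B6, and 0 were at least 2-fold higher. A count over 2 genes says nothing about the group of enzymes.

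**Figure D3:**
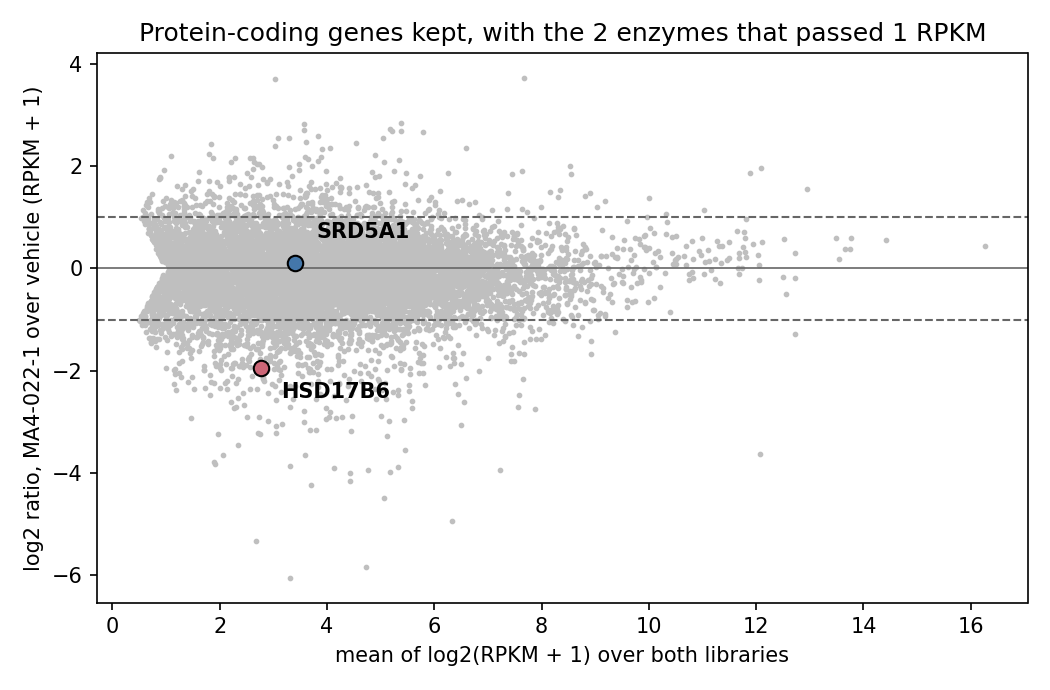
Each grey point is 1 of 9837 protein-coding genes, by mean log2(RPKM + 1) over both libraries (horizontal) and log2 ratio of RPKM + 1, MA4-022-1 over vehicle (vertical), with dashed lines at 2-fold. HSD17B6 (red) is at -1.96, below the lower line, and SRD5A1 (blue) at 0.10.

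The deposited locus of HSD17B6 (hg19 chromosome 12, 57106211 to 57181574) is shared with a row that joins NACA and PRIM1, the latter a subunit of the primase that starts DNA strands. That row stood at 3356 RPKM under DMSO and 2858 RPKM with MA4-022-1, a log2 ratio of -0.23. In GENCODE release 29, HSD17B6 and PRIM1 lie on opposite strands and share 132 of the 2272 exon bases of HSD17B6, or 5.81%, which belong to 2 of its 10 transcripts. HSD17B6 and NACA share 0 exon bases. No source used here states whether reads were assigned by strand, so reads from the shared bases cannot be told apart, and their part in the difference was not tested.

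SRD5A1 makes dihydrotestosterone from testosterone and is the form of the reductase that castration-resistant tumours are known to express. It stood at 9.24 RPKM under DMSO and 9.99 RPKM with MA4-022-1 (hg19 chromosome 5, 6599351 to 6671412). The log2 ratio of RPKM + 1 was 0.10 on the deposited scale and -0.02 with equal sums over the genes kept, so its sign depended on the scale. Without a pseudocount the log2 ratio was 0.11. On its annotated coding transcript of 7132 nt the values were 1739 and 1379 reads, with a counting interval from 0.01 to 0.21, and on a transcript of 1467 nt that is annotated as degraded by nonsense-mediated decay they were 318 and 252 reads, with an interval from -0.13 to 0.35. Whether the interval included 0 thus depended on the transcript length, and variation between cultures was not measured. NSUN2, an RNA methyltransferase whose row has the same deposited locus on the opposite strand, stood at 81.6 and 53.2 RPKM, and the annotation gives it 0 exon bases in common with SRD5A1.

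HSD17B6 and SRD5A1 exchanged their order. Per length, SRD5A1 was at 0.746 times the level of HSD17B6 under DMSO and at 4.08 times it with MA4-022-1. Both were below the median of the protein-coding genes kept, which was 15.2 RPKM under DMSO and 13.8 RPKM with MA4-022-1. Of the related reductases, SRD5A3, which is better known for its part in protein glycosylation, stood at 34.3 and 33.9 RPKM, and SRD5A2, the form of the normal prostate, at 0.0339 RPKM and listed at 0.

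AKR1C3, which reduces androstenedione to testosterone, stood at 0.663 RPKM with the compound and was listed at 0 under DMSO (hg19 chromosome 10, 5077548 to 5149878). That value amounts to 5.74 to 21.2 reads over its 4 coding transcripts, and no fold is given. Its neighbours in the gene cluster were as low. AKR1C1, which inactivates dihydrotestosterone, was at 0.140 and 0.224 RPKM, AKR1C2 at 0.0265 RPKM and listed at 0, and AKR1C4 listed at 0 in both. AKR1C3, UGT2B10 and UGT2B15 each have a further row on an alternate contig, and these 3 rows were listed at 0 in both libraries.

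DHRS9, a dehydrogenase of the same family as HSD17B6 that acts on retinol and on reduced androgens, was at 0.0277 RPKM under DMSO and 0.201 RPKM with MA4-022-1 (hg19 chromosome 2, 169921298 to 169952677). On the median transcript length of 1665 nt this is 1.10 against 5.85 reads. The log2 ratio was 2.86 with a counting interval from -0.01 to 8.56, which just includes 0. On the longest coding transcript, 2863 nt, it is 2.00 against 10.6 reads. With these rounded to 2 and 11, the interval runs from 0.71 to 6.12. Both intervals rest on reads rounded to whole numbers. Whether the interval included 0 again depended on the transcript length, and both levels were under 1 RPKM.

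The genes around these enzymes are given as counts, by list. Of 99 listed genes found in the tables, 53 were at 1 RPKM or more in a library, 4 of these had fallen 2-fold or more, 2 had risen as much and 47 were between these bounds. These are 7.55% and 3.77% of the 53, beside 9.49% and 4.12% of all protein-coding genes kept, so the listed genes were near the background. Their median log2 ratio was -0.18, against -0.10 over all protein-coding genes kept. Genes in a joined row, such as HSD17B11 with HSD17B13 and KLK2 with KLK3, carry the same value and were each counted. Joined rows had no matched gene type and were left out of the protein-coding background, so the shares compared are over unlike sets.

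Glucuronidation needs an activated sugar as well as an enzyme. Of 6 genes of that supply and of the reverse reaction, 5 were at 1 RPKM or more and none of the 5 was past 2-fold in either direction. UGDH, which makes UDP-glucuronic acid, stood at 49.7 RPKM under DMSO and 26.5 RPKM with MA4-022-1, a 1.84-fold lower value. UGP2, the step before it, was at 28.0 and 20.9 RPKM. Both were above 1 RPKM in libraries where no UGT2B member reached it. Of 14 other UGT genes found, 1 reached 1 RPKM, UGT8, a brain lipid enzyme, at 3.42 and 3.78 RPKM. The UGT1A genes were joined in 1 row at 0.216 and 0.0158 RPKM.

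In the list of synthesis from cholesterol and precursors, 9 of 16 genes were at 1 RPKM or more, 2 were at least 2-fold lower, none was higher and the median log2 ratio was -0.26. FDXR, which passes electrons to mitochondrial steroid hydroxylases, stood at 27.4 against 11.2 RPKM, 2.34-fold lower. The other was CYP11A1, the side-chain cleavage enzyme that starts steroid synthesis, at 3.87 against 0.539 RPKM, named after its values were seen. CYP17A1, HSD3B1, HSD3B2 and HSD17B3, further steps of the route, were all under 1 RPKM. HSD17B3 was at 0.603 RPKM under DMSO, and with the compound it was listed at 0.

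In the list of other dehydrogenases of steroids and retinoids, 16 of 19 genes were at 1 RPKM or more, 2 at least 2-fold lower and 1 higher. The list had a median log2 ratio of -0.33. DHRS3, which reduces retinal to retinol, was at 8.05 against 0.780 RPKM, 5.08-fold lower. HSD3B7, an enzyme of bile acid synthesis, was at 9.64 against 2.21 RPKM, 3.32-fold lower. The higher one was DHRS2, at 0.406 against 2.48 RPKM, named after its values were seen. HSD17B4, of peroxisomal fatty acid oxidation, stood at 729 and 722 RPKM, and HSD17B2, which oxidises testosterone to a weaker steroid, at 0.0828 and 0.125 RPKM. RDH16, a close relative of HSD17B6, was at 0.606 and 0.807 RPKM.

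Of the steroid hydroxylases 3 of 7 were at 1 RPKM or more, and CYP3A5, which hydroxylates testosterone, stood at 2.03 RPKM under DMSO and 11.9 RPKM with the compound, a 4.26-fold higher value. CYP3A43 and CYP3A4, in the same family, stood at 0.690 against 1.13 and 0.0189 against 0.142 RPKM. CYP1A1, also kept, went the other way, at 1.07 against 0.562 RPKM. The sulfation list had 7 of 10 genes at 1 RPKM or more and the lists of aldo-keto reductases and steroid transporters 2 of 9 and 3 of 9, and none of these was past 2-fold. The largest differences on the log2 scale among their genes kept were those of ABCC4 and ABCC1, both exporters, at 96.8 against 54.1 and 23.5 against 40.0 RPKM.

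**Figure D4:**
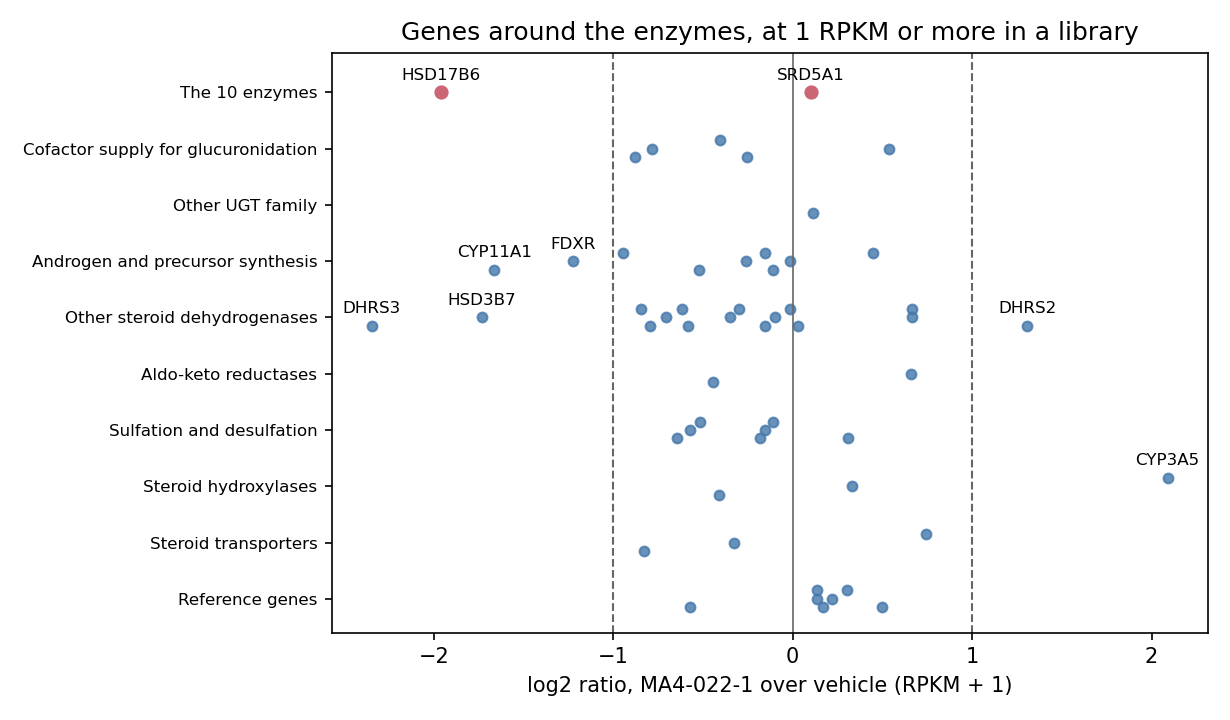
Log2 ratio of RPKM + 1, MA4-022-1 over vehicle, of each listed gene at 1 RPKM or more in a library (blue; 53 genes) and of HSD17B6 and SRD5A1 (red), with dashed lines at 2-fold. Named blue points are those past 2-fold, 4 lower and 2 higher.

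A last list held reference genes that androgen induces and factors of prostate and liver cells, and none of its 7 genes kept was past 2-fold, a count too small to set against the background of 9.49% lower and 4.12% higher. TMPRSS2, a protease gene that androgen induces, stood at 251 and 310 RPKM, and FKBP5, another such gene, at 72.7 and 48.6 RPKM. FOXA1, a pioneer factor of prostate cells, was at 89.7 and 127 RPKM. HNF4A, a liver factor, was at 0.114 RPKM and listed at 0. All 13 luminal prostate markers were at 1 RPKM or more in both libraries. Of these 13, 1 was past 2-fold, ACPP, the prostatic acid phosphatase, at 13.4 RPKM under DMSO and 3.07 RPKM with the compound, 3.53-fold lower. Of 8 hepatocyte markers 1 was at 1 RPKM or more in each library, TTR, which was not past 2-fold. ALB was listed at 0 in both, as was the basal keratin KRT5. The summed level of the hepatocyte markers was 1.99 and 3.47 RPKM and that of the 4 basal markers 0.802 and 1.08 RPKM. Of 5 neuroendocrine markers 2 were at 1 RPKM or more in each library, with sums of 2.76 and 5.21 RPKM. Of 7 fibroblast and bone genes, COL1A1 was at 1.19 and 5.03 RPKM, past 2-fold higher. PDGFRB was at 0.858 RPKM and listed at 0, and DCN was at 0.713 and 0.319 RPKM. CD68 and BGLAP, a leukocyte and a bone marker, had values in rows joined with other genes alone (that of BGLAP at 128 and 63.9 RPKM), and IBSP, another bone gene, was listed at 0. The part of these markers in the differences above was not tested. In bulk RNA, fewer cells that express a gene and less RNA per cell cannot be told apart.

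Promoter windows of RefSeq (GRCh38.p14, 300 bases around a start) were at hand for 7 of the members, 11 windows in all, and UGT2B17, UGT2B28 and HSD17B6 had none matched. Both strands were searched for short motifs. The half-sites AGAACA or TGTTCT, of the kind steroid hormone receptors bind, were in 3 of the 11 windows (2 of DHRS9 and the one of UGT2B15), against 14.8% of all 35116 windows, and both half-sites 3 bases apart in none, against 0.00285%. TGTTTAC, a forkhead motif of the kind FOXA1 binds, was in 1 of the 11 (UGT2B15), against 3.42%. GTTAAT, an HNF1 half-site, was in 1 of the 11 (DHRS9), against 6.88%, and the E-box CACGTG in none, against 7.26%. A match is a run of letters and not a site of binding, which these data do not measure.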

How the data were processed

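Total RNA, depleted of ribosomal RNA, was sequenced as single reads of 50 bases, per the labels' protocols. The submitters' processing notes name hg19, Cufflinks 2.2.1 and TopHat2 2.0.13. The authors deposited 1 table of RPKM per gene for each library, with 62271 rows in the same order, and no count test was run on these normalised values. The annotation, strand setting and treatment of reads with several matches are not stated in any source used here.

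Rows of 1 symbol were summed, and no member was in a joined row. Genes at 1 RPKM or more in a library were kept, and differences are log2 of RPKM + 1, MA4-022-1 over vehicle, which understates changes of low genes. A difference counted from 2-fold. Gene types came from GENCODE release 29, which matched 10966 of 15432 genes kept, and so did lengths. Its coordinates are of another build and were used for exon overlap alone. Depth came from a straight-line fit of low values on length, which shortened transcripts by 201 nt. The rule for naming genes covered all members and listed genes past 2-fold with 5 RPKM or more. Other listed genes that are named, such as UGDH and TMPRSS2, did not meet this rule and served as background. The members and lists were chosen with earlier results of these data known. The depth, ratio and interval steps were tested on simulated data. Python 3.11.15, numpy 2.4.6, pandas 2.3.3, scipy 1.17.1 and matplotlib 3.10.9 were used. Most listed genes are given by count alone, and some items are not reported here.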

Additional observations from a re-analysis of the deposited data

How the results depend on the processing

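The counts of members past 2-fold, 1 lower and 0 higher, were the same under other pseudocounts (0.1 and 5 RPKM), filters, scalings, thresholds (1.5-fold and 3-fold) and ways of taking rows. These counts rest on the 2 members that passed 1 RPKM. Among the members under it, a pseudocount of 0.1 RPKM moved the log2 ratio of AKR1C3 from 0.73 to 2.93, of DHRS9 from 0.22 to 1.24, and of UGT2B15 and UGT2B17 from -0.28 to -1.66, all then past 2-fold. AKR1C3, UGT2B15 and UGT2B17 were each listed at 0 in 1 library. The size of their ratios therefore depends on the pseudocount chosen and is not a measured fold. Of 63 recomputed log2 ratios of single members, 55 kept their sign and moved by less than counting error (by less than 0.5 where no interval could be had). The other 8 moved by more or changed sign. SRD5A1 changed sign with equal sums over the genes kept (0.10 to -0.02). UGT2B10 changed sign with housekeeping controls set to 0 (-0.08 to 0.04). There the log2 shift of -0.12 was taken off after the pseudocount was added. UGT2B10 was at 0.0603 RPKM under DMSO and listed at 0 with the compound. Rescaling a library cannot make a value of 0 the higher one, so its change of sign is not a change of direction. The sign of HSD17B6, the only member past 2-fold, never changed. Among the listed genes of the pathway, 7 were lower with a pseudocount of 0.1 RPKM. A threshold of 1.5-fold gave 13 lower and 6 higher. With a pseudocount of 5 RPKM, a filter of 5 RPKM or a threshold of 3-fold, 1 was higher. By construction a higher filter tests fewer genes, and the threshold and the pseudocount set which folds count. Leaving out a replicate was not possible, since each group had 1 library. Depth limits all statements on the 8 members under 1 RPKM, of which none exceeded 21.2 reads on an annotated coding transcript.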
